A study of Homo sapiens with 6 samples.

Results

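The 10 genes described here belong to the fibroblast growth factor (FGF) pathway and its ERK feedback loop: FGF2, FGFR1, SPRY1, SPRY2, SPRY4, SPRED1, DUSP4, DUSP6, ETV4 and ETV5. They were followed through the ZIC2-bound regions that lay within 100 kb of the start of each gene, measured to the nearest edge. This gave 39 of the 16077 distinct regions in the deposited lists. The starts were given on hg19 in whole kb, whether rounded or truncated is not known, so distances under 1 kb and the side of a start on which such a region falls are not resolved. ZIC2 is a zinc-finger transcription factor, and its binding was mapped by CUT&Tag, in which a transposase held at an antibody cuts and tags the DNA beside the bound protein. The cells were H1 (WA01), an established line of human embryonic stem cells. Wild-type cells (WT) and cells with a Cas9 knockout of the zinc-finger protein ZNF263, which the labels call homogeneous (KO), each had 2 ZIC2 libraries and 1 IgG library. No treatment, time or culture batch is given, and the labels do not say whether the libraries came from separate cultures or whether the knockout line is 1 clone.

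The authors deposited 1 list of regions for each genotype, holding positions only. No height, read count or value per library stands behind a region, so depth is unknown, no replicate error can be given, and no test between genotypes was made. A region is called shared where it is in both lists, WT-only or KO-only where it is in 1 of them. Absence from a list means that the region was not called there. Every overlapping pair in the lists has the same edges, so the width of a shared region is 1 value for both genotypes. DUSP6 was chosen by measured values, the class and width of the very wide WT-only region beside it, and the other genes were taken with earlier results of these lists known. Classes, widths and distances are therefore descriptions. The lists hold no expression, so neither the cell type nor the activity of these genes was checked against markers.

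FGF ligands bind receptor tyrosine kinases of the FGFR family at the cell surface, and the receptors signal through RAS, RAF and MEK to the kinase ERK. Active ERK induces its own brakes: Sprouty and SPRED proteins act above or at RAF, and dual-specificity phosphatases remove the activating phosphates from ERK itself. ETV4 and ETV5 are ETS-family transcription factors that are induced by the same signal and carry it to target genes. Human embryonic stem cells are commonly grown with FGF2, and FGF signalling through ERK takes part both in keeping the primed pluripotent state and in leaving it.

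Promoter sequences in the RefSeq table (GRCh38.p14, 250 bases before to 50 bases after a start) were matched by symbol for 6 of the 10 genes. Those of the 4 genes with a ZIC2 region within 1 kb are shown, with SPRY1, which has none there, for contrast. The lists are on hg19, and the bases under the regions themselves were not read. Capitals mark matches on either strand to GGAGGA, the short repeat unit of the known ZNF263 motif, read on the other strand as TCCTCC, and, at 1 place in DUSP6, the longer core GGGAGGA (there TCCTCCC).

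DUSP6 (WT-only regions at the start; GRCh38 chr12:89352452-89352751, minus strand): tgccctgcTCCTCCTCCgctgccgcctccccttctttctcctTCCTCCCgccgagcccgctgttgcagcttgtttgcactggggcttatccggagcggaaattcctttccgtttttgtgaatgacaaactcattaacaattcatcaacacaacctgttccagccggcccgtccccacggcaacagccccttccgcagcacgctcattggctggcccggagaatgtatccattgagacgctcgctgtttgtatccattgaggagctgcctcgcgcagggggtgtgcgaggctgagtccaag

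SPRY2 (WT-only region at the start; GRCh38 chr13:80341077-80341376, minus strand, 1 of 3 entries): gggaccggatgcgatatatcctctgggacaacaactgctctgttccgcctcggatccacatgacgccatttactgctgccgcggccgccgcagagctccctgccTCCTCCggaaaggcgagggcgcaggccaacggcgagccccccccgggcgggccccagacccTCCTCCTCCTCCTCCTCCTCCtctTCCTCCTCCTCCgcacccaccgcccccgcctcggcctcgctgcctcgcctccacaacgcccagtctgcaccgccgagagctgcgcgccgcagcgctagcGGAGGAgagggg

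SPRY4 (shared regions at the start; GRCh38 chr5:142324198-142324497, minus strand): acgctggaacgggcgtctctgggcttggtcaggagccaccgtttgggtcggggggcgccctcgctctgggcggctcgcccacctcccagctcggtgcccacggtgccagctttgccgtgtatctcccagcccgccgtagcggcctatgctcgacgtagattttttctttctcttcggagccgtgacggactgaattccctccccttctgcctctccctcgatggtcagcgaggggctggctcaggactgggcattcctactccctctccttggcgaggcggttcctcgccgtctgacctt

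SPRED1 (shared region at the start; GRCh38 chr15:38252586-38252885, plus strand): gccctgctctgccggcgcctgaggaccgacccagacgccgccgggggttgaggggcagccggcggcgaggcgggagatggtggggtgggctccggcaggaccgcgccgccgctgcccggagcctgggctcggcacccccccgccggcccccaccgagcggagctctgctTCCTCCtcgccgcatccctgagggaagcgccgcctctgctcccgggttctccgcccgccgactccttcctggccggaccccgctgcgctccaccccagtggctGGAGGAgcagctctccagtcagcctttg

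SPRY1 (no region near the start; GRCh38 chr4:123396545-123396844, plus strand, 1 of 2 entries): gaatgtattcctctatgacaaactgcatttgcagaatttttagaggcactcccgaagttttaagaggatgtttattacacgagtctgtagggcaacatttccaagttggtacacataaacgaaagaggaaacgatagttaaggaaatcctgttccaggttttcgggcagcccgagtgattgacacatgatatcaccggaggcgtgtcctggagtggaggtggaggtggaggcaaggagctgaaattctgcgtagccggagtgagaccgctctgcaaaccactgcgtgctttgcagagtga

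The SPRY2 sequence shown held 11 overlapping matches to GGAGGA, most of them in 2 runs of TCC repeats. At least 11 matches were found in 30 of the 35116 promoter entries of the table (0.0854%). The other 2 SPRY2 entries held 0 and 1, and the entry shown is the outermost of the 3 starts, picked with these counts in view. DUSP6 held 3 matches, a number reached by 3.81% of entries, and SPRED1 held 2, reached by 11.5%. The SPRY4 and SPRY1 sequences shown held none, against 36.6% of all entries with at least 1. The pattern thus differed among the promoters with a shared region, of which SPRED1 held the repeat and SPRY4 did not. FGF2, not shown, held 1 match, and its shared region lay 1115 bp from the start. By gene, 4 of the 6 (DUSP6, SPRY2, SPRED1 and FGF2) held GGAGGA in at least 1 entry. A gene can have several entries, so this is not set directly against the 36.6%. GGAGGA was chosen after the sequences were seen. The longer core GGGAGGA, which contains it, matched DUSP6 and FGF2 among the 6 genes, against 18.1% of all entries. The ZIC core CAGCAGG matched 0 of the 6 genes, against 10.5% of entries, and the ETS core CCGGAAG, which neither contains nor lies within the others, matched the other SPRY1 entry alone, against 10.3%. These are letters in a short window, and no match says nothing about binding outside it.

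Each of the 10 genes had between 2 and 9 ZIC2 regions within 100 kb. Of the 39 regions, 20 were WT-only (51.3%, exact Clopper-Pearson 95% interval 34.8 to 67.6), against 55.0% of all regions. KO-only regions numbered 4 (10.3%, 2.87 to 24.2), against 19.4% of all regions. The remaining 15 were shared (38.5%, 23.4 to 55.4), against 25.6%. With DUSP6 included, the WT-only share near these genes is thus close to that of the lists as a whole. The background shares of the other classes fall inside the wide intervals of so few regions. These intervals reflect counting error alone and take each region as independent of its neighbours. The WT list held 35 of the regions and the KO list 19, or 54.3 KO regions per 100 WT regions, against 55.8 over all regions. Of the 35 WT regions, 15 were also in the KO list (42.9%, 26.3 to 60.6), against 31.8% of all WT regions. Without DUSP6 there were 63.3 KO regions per 100 WT regions, and 50.0% of the WT regions were also in the KO list (31.3 to 68.7). Shared regions were then 15 of 34 (44.1%, 27.2 to 62.1), an interval that lies above the 25.6% of all regions. WT-only regions were also 15 of 34, with the 55.0% of all regions inside the interval. The likeness to the background thus rests in part on DUSP6, which was chosen by class. The other genes were taken with earlier results known, so the shared share was not tested.

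**Figure D1:**
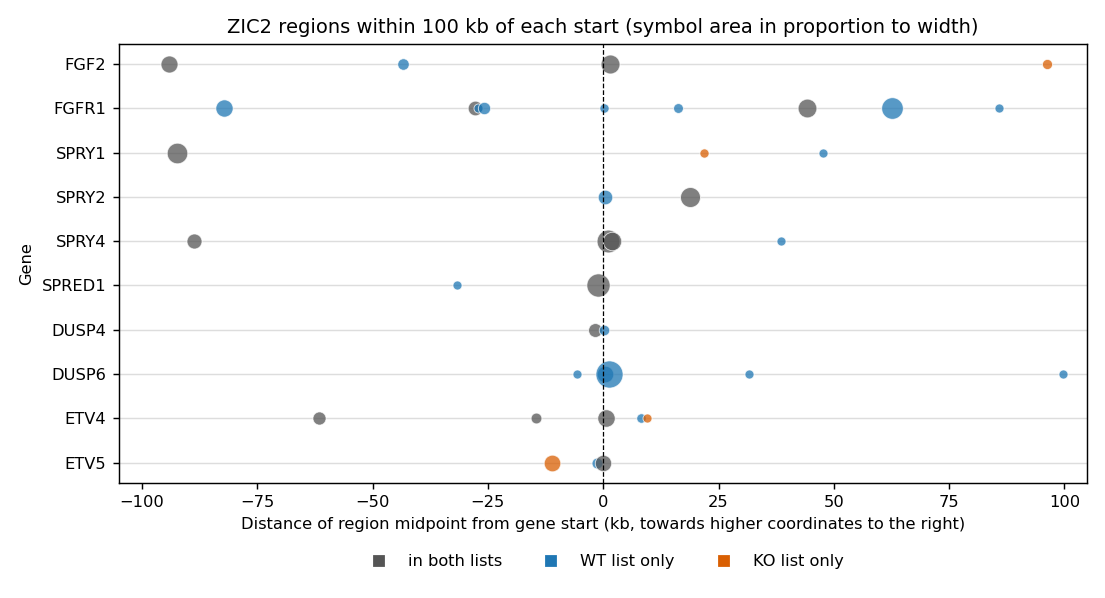
Positions of the 39 ZIC2 regions by gene. The horizontal axis gives the distance of each region's midpoint from the gene start in kb, the rows are the 10 genes, colours give the list or lists that hold a region, and the area of a symbol is proportional to the region's width; the DUSP6 row holds 5 regions, all of them WT-only, and FGFR1 holds the most regions, 9.

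ZIC2 regions were found at the starts of 9 of the 10 genes. In all, 13 regions lay within 2 kb of a start, and SPRY1 was the gene without any. Within 2 kb there were 0.325 regions per kb and gene, against 0.0187 from 2 to 10 kb and 0.0167 from 10 to 25 kb. From 25 to 50 kb there were 0.0180 and from 50 to 100 kb 0.00900. The density was thus by far the highest in the innermost band and the lowest in the outermost. The windows as a whole were also denser than tiles of 200 kb over the genome, with means of 3.90 and 1.06 regions. How often starts in general carry a region was not analysed here, for want of gene positions on hg19. The density at the starts therefore cannot be called particular to these genes. The 13 regions at starts were 7 shared (53.8%, exact interval 25.1 to 80.8, against 25.6% of all regions) and 6 WT-only (46.2%, 19.2 to 74.9, against 55.0%). These include the 2 WT-only regions of DUSP6, which was chosen by class. Without them there were 11 regions, 7 shared and 4 WT-only. KO-only regions made up 0 of the 13, against 19.4% of all regions. A count of 0 allows a share of up to 23.1% by the limit of 3 counts and up to 24.7% by the exact interval, and both limits include the background.

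The WT list had a region within 2 kb of the start for 9 genes and the KO list for 6. The WT list is the longer in any case, with 12966 regions against 7231, and 31.8% of its regions are in the KO list. The 3 genes that make up the difference were DUSP6, SPRY2 and FGFR1, a phosphatase, a Sprouty and the receptor. DUSP6 was chosen by the class of a region at its start, so its place among the 3 was given in advance. With DUSP6 left out, 8 genes had a region within 2 kb, against 6 in the KO list. The FGFR1 region was 158 bp wide, and of all regions up to 200 bp 70.7% are WT-only and 3.06% shared. At SPRY4, SPRED1, ETV4, ETV5 and FGF2 the region nearest to the start was shared. DUSP4 had both kinds, with the WT-only region the nearer. The distance from the start to the nearest region of the WT list had a median of 293.5 bp over the genes and reached 47505 bp at SPRY1. For the KO list the median was 1349 bp, and the longest distance was 192488 bp, at DUSP6, the gene chosen by class. The WT median is below the 1 kb precision of the starts and so is not resolved, and the KO median is close to that limit.

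**Figure D2:**
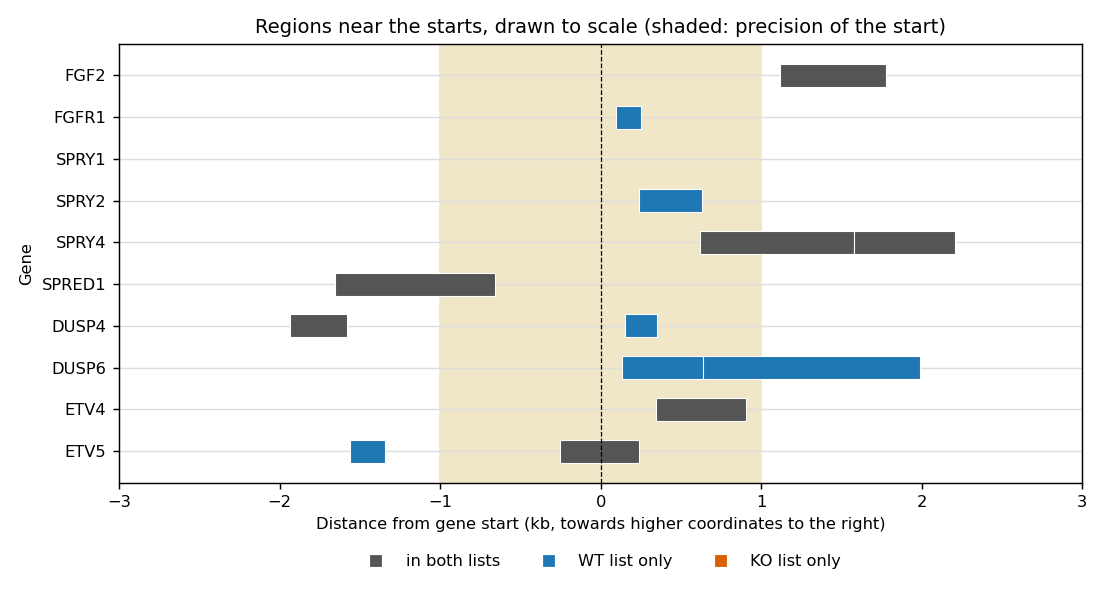
Regions near the 10 starts, drawn to scale. The horizontal axis gives the distance from the start in kb, bars span the regions, colours give their lists and the shaded band marks the 1 kb precision of the starts; blue bars (WT list only) stand alone at DUSP6, SPRY2 and FGFR1, and the SPRY1 row is empty.

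FGF2 encodes the ligand. Its start had a shared region of 660 bp at chr4:123749115-123749774 (hg19), 1115 bp towards higher coordinates, which on the plus strand is the transcribed side. A second shared region of 534 bp lay 94.0 kb below the start. The other regions of the window were narrow, a WT-only region of 244 bp at 43.3 kb below and a KO-only region of 188 bp at 96.1 kb above. Both lists therefore held 3 regions here, with the 2 widest in common. In the RefSeq gene order NUDT6 overlaps FGF2, with BBS12 as the next protein-coding gene below and AFG2A above, so the outer regions may lie nearer to those genes.

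FGFR1, a main FGF receptor of embryonic stem cells, had 9 regions, the most of the 10 genes, all of them in the WT list and 2 in the KO list. The region at its start was narrow, 158 bp at chr8:38326095-38326252, and WT-only. Its 2 shared regions lay away from the start, 394 bp wide at 27.5 kb below and 648 bp wide at 43.8 kb above. Beside the lower of them stood a pair of WT-only regions, 150 bp and 280 bp wide, at 27.1 and 25.8 kb. The widest region of the locus, 858 bp at chr8:38388230-38389087 (62.2 kb above), was WT-only and ranked 79 among the 8846 regions of that class. Another WT-only region of 550 bp lay 81.9 kb below, and the last 2 were 177 bp and 150 bp wide at 16.1 and 85.8 kb above. The locus thus combined narrow and wide WT-only regions. Of the 40 tiles of 200 kb that held 9 regions anywhere in the genome, 3 (7.50%) had at least 7 that were WT-only. The limit of 7 was taken from FGFR1 itself, and tiles are not centred on starts. This share therefore does not measure how unusual the locus is. LETM2 is the next protein-coding gene below FGFR1 and TACC1 the next above.

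The Sprouty genes, whose products block signalling between receptor and ERK, differed from each other. SPRY4 had the widest shared binding at a start. A region of 960 bp at chr5:141704617-141705576 and a region of 628 bp at chr5:141705577-141706204 touched each other, and both were shared. They reached 2204 bp towards higher coordinates, the upstream side of this minus-strand gene. Joined, they made a stretch of 1588 bp, which ranked 18 by width among 4100 stretches with pieces from both lists. These 4100 include mixed stretches, in which touching regions differ in class, so the rank is not among stretches shared throughout. Mixed stretches wider than that of SPRY4 were among them, such as a WT-only region touching a KO-only region on chromosome 12, 1967 bp in all. A shared region of 416 bp lay 88.6 kb below and a WT-only region of 150 bp lay 38.5 kb above. The next protein-coding gene above SPRY4 is FGF1, which encodes another FGF ligand, and the next below is NDFIP1.

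SPRY2 had 2 regions. At its start stood a WT-only region of 390 bp (chr13:80915241-80915630), wider than 84.0% of WT-only regions. A shared region of 732 bp, wider than 81.7% of shared regions, followed at chr13:80933545-80934276, 18.5 kb above the start on the upstream side. In the KO list this was the region nearest to SPRY2. Below the start the nearest WT region was 558 kb away and the nearest KO region 1670 kb away.

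SPRY1 was the exception among the 10 genes. Its nearest region was KO-only, 155 bp wide and 21.9 kb above the start. A WT-only region of 150 bp followed at 47.5 kb above. The only wide region, 780 bp and shared, lay 92.1 kb below at chr4:124225130-124225909, on the side of AFG2A, which is the next protein-coding gene there and lies between FGF2 and SPRY1. Both lists held 2 regions at this gene. SPRY1, SPRY2 and SPRY4 thus showed, in that order, no region at the start, a WT-only region and a shared pair.

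SPRED1, a membrane-bound relative of the Sproutys that acts on RAS with neurofibromin, had a shared region of 995 bp at chr15:38543345-38544339. Its far edge was 1655 bp below the start, on the upstream side of this plus-strand gene. Its near edge, at 661 bp, is within the 1 kb precision. It was the widest shared region among the 39 and wider than 95.5% of all shared regions. The other region of the window was WT-only, 150 bp wide and 31.7 kb below.

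DUSP6 encodes the cytoplasmic phosphatase that is specific for ERK and is a standard readout of FGF signalling. Every one of its 5 regions was WT-only, and the KO list was empty within 100 kb. The region that led to its choice, 1357 bp at chr12:89746635-89747991, ranked 2 by width among the 8846 WT-only regions. It touched a second WT-only region of 504 bp at chr12:89746131-89746634, itself wider than 91.1% of its class. Together they spanned 1861 bp and reached 1991 bp above the start, the upstream side of this minus-strand gene. Their near edge, 131 bp from the start, is within the 1 kb precision, so its side is not resolved. As joined stretches this was the widest of the 8830 in the WT-only class, ahead of the next at 1605 bp. Touching pairs were rare, 46 in all, of which 24 were shared on both sides, 10 shared with WT-only, and 2 WT-only on both sides. DUSP6 and SPRY4 held 2 of the 46.

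The other DUSP6 regions were of the minimum width in the lists, 150 bp, at 5.65 kb below, 31.5 kb above and 99.6 kb above the start. The nearest regions of the KO list were shared at 192 kb above (274 bp) and KO-only at 253 kb below (290 bp). The 5 WT-only regions followed each other without another class between them over 106 kb. Runs of 5 or more such neighbours were 395 of 3843 (10.3%) and held 29.1% of WT-only regions. Of the 264 tiles of 200 kb with exactly 5 regions, 14 (5.30%) were WT-only throughout. Runs and tiles were not picked by class, as DUSP6 was, so these shares do not measure how unusual the locus is. For width, among all regions above 1000 bp, 13.5% were WT-only and 76.0% shared. KITLG and POC1B are the next protein-coding genes below and above, and a read-through transcript named POC1B-DUSP6 overlaps DUSP6 in RefSeq.

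DUSP4 encodes a nuclear phosphatase of the same family. Its 2 regions both lay within 2 kb of the start. The shared region of 352 bp (chr8:29206066-29206417) was 1583 bp below and the WT-only region of 201 bp (chr8:29208149-29208349) was 149 bp above. No other region of either list lay within 100 kb, and the next KO region above was 525 kb away. DUSP4 thus had a region of the KO list near its start and DUSP6 did not, while the WT-only region at DUSP4 was narrower than either at the DUSP6 start.

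ETV4 and ETV5, the ETS factors at the output of the pathway, both had a shared region of moderate width at the start. At ETV4 it was 559 bp wide (chr17:41623346-41623904) and 346 bp above the start. Narrower shared regions of 214 bp and 318 bp lay 14.5 and 61.5 kb below. Above the start a WT-only region of 165 bp at 8.13 kb and a KO-only region of 150 bp at 9.34 kb stood close together, so that each list held 4 regions.

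At ETV5 the shared region of 496 bp (chr3:185826745-185827240) covered the start as given, reaching at most 255 bp from it, which is within the 1 kb precision. A WT-only region of 220 bp lay 1345 bp below. Farther on the same side, 10.8 kb below, stood a KO-only region of 509 bp (chr3:185815683-185816191). This was the widest of the 4 KO-only regions near the 10 genes and wider than 90.4% of its class. ETV5 was the only one of the genes where KO regions covered distinctly more sequence than WT regions, 1005 bp against 716 bp. At SPRY1 the lengths were 935 bp and 930 bp, and at the other 8 genes the WT length was the larger. TRA2B and DGKG are the neighbours of ETV5 below and above.

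Regions at the starts had a larger median width than those farther out. Widths at starts in general were not analysed here, so this cannot be called particular to these genes. The 13 within 2 kb had a median of 504 bp (158 to 1357 bp), and the 26 beyond had a median of 201 bp (150 to 858 bp), against 235 bp over all regions. Among the 26 outer regions, 9 had the smallest width in the lists, 150 bp, and among the 13 inner ones 0 had it. Shared regions had medians of 628 bp at the starts and 475 bp beyond, and WT-only regions 305 bp and 150 bp. Without DUSP6, whose region was chosen for its width, the medians were 496 bp at the starts and 244 bp beyond, and for WT-only regions 210.5 bp and 165 bp. Over the lists as a whole, shared regions had a median of 460 bp, WT-only regions 181 bp and KO-only regions 167 bp.

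**Figure D3:**
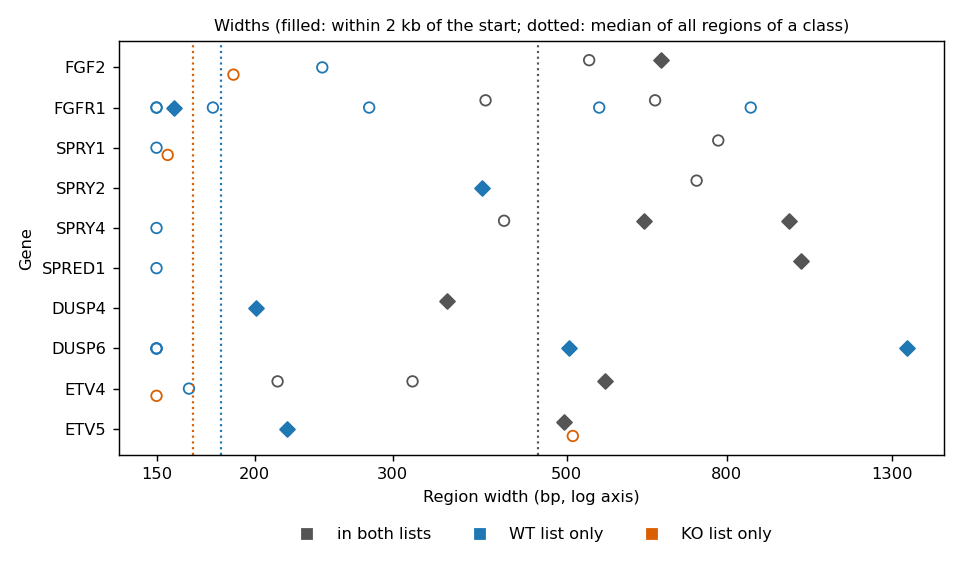
Widths of the 39 regions by gene on a log axis in bp. Filled diamonds lie within 2 kb of the start and open circles beyond, colours give the lists, dotted lines are the medians of all regions of a class (460, 181 and 167 bp), and regions of equal width at a gene overlie each other; the DUSP6 diamond at 1357 bp is the widest.

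Class went with width near these genes much as it does in the lists at large, apart from the widest region. Of the 14 regions up to 200 bp, 0 were shared, 11 were WT-only and 3 were KO-only, where 3.06%, 70.7% and 26.2% of all regions are. All 5 regions from 601 to 800 bp were shared, where 62.5% of all regions are. From 801 to 1000 bp, SPRY4 and SPRED1 had shared regions and FGFR1 the WT-only one, in a band where 17.7% of all regions are WT-only. From 401 to 600 bp, 4 were shared, 2 WT-only and 1 KO-only, against 48.3%, 38.6% and 13.2% of all regions. From 201 to 300 bp, 1 was shared and 4 WT-only, against 25.3% and 58.8%. From 301 to 400 bp, 3 were shared and 1 WT-only, against 37.4% and 45.3%. The 1 region above 1000 bp, that of DUSP6, was WT-only, where 13.5% of all regions are. It was chosen by class and width. Over all regions, 3.06% of those up to 200 bp and 76.0% of those above 1000 bp are shared, so width and class are not independent measures. A shared region has the same edges in each list, so its width is 1 value for both.

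**Figure D4:**
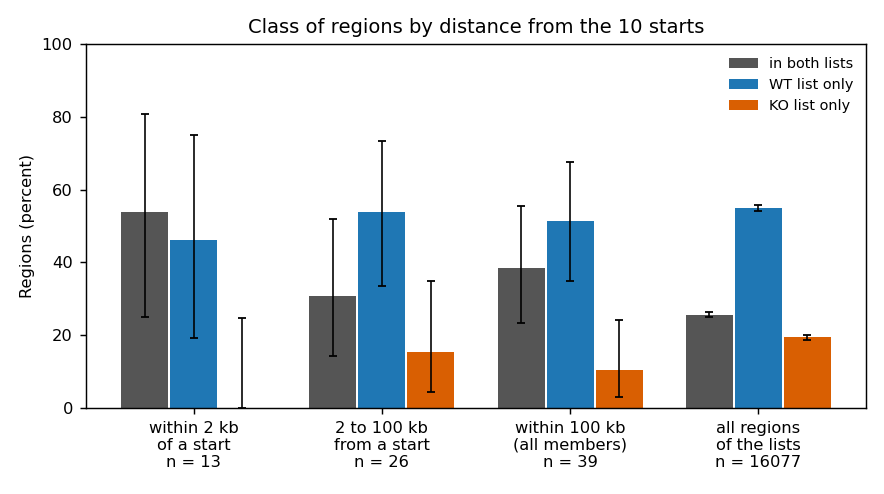
Share of regions in each class, in percent, within 2 kb of the 10 starts, from 2 to 100 kb, within 100 kb in all, and over all 16077 regions. Bars are shares and error bars exact 95% binomial intervals for counting error; the intervals of the first 3 sets are wide, and the KO-only bar at the starts is 0. The first 3 sets include DUSP6, which was chosen by class.

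The loci held more regions than an average stretch of the genome. The windows of 200 kb around the starts held a median of 3.5 regions and a mean of 3.90, whereas 15162 tiles of 200 kb over chromosomes 1 to 22 and X held a mean of 1.06, and 46.6% of them held any. Tiles include gene-poor sequence, so this is no comparison with other genes. Counted around regions, the difference was small. The 13 regions at the starts had a median of 3 other regions within 100 kb and a mean of 2.85, against 2 and 2.77 for all regions. At the edge of the window, the last regions counted were the DUSP6 region at 99.6 kb and the FGF2 region at 96.1 kb. The first left out were a WT-only region of 150 bp and a KO-only region of 155 bp above SPRY4, at 102 and 103 kb. Exons, introns and other pathway genes were not analysed here, since no annotation on hg19 was used.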

How the data were processed

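ZIC2 CUT&Tag libraries of H1 cells (2 WT and 2 KO) stand behind the 2 lists analysed, and the IgG libraries were not analysed here. The authors deposited 3 columns per region (chromosome, start and end) and no score. Per the submitters' processing notes, Bowtie2 and Picard were used with hg19. Not given in the sources used here are the peak caller, its threshold, the use of IgG and the pooling of replicates.

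Regions were called shared when they overlapped by at least 1 bp. Distances run from a start, given to 1 kb, to the nearest edge, and coordinates count from 1. Gene order and strands came from RefSeq on GRCh38, and none of its coordinates was set against the lists. Shares carry exact 95% binomial intervals. Python 3.11.15, numpy 2.4.6, pandas 2.3.3, scipy 1.17.1 and matplotlib 3.10.9 were used, and the routines were tested on simulated data. All 10 genes are named with all their regions. Members, gene list, windows and motifs were chosen with earlier results of these data known. The 2 kb band, the runs and the tiles by class were added after seeing the data.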

Additional observations from a re-analysis of the deposited data

How the results depend on the processing

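With windows of 25 kb on each side of a start, 21 regions were counted in place of 39, since fewer bases were searched. Under the other 8 settings (50 kb, 200 kb, midpoints, regions wider than 150 bp, regions within 1 kb joined, shared edges within 1 kb, 50% reciprocal overlap, DUSP6 left out) the number stayed between 30 and 50. The WT-only share ranged from 40.0% to 53.3% over all 9 settings, inside the interval of the value reported, and the median width from 259 to 456 bp against 318 bp (exact interval 177 to 509 bp). All genes counted had a region under each setting. Between 8 and 9 genes had a region near the start with limits of 1 kb or 5 kb, starts moved by 1 kb, midpoints, or DUSP6 left out, settings chosen after seeing the data. Overlap rules could change little, since overlapping pairs have identical edges. No paired analysis was possible because each genotype has a single list with no column per replicate, and leaving out a replicate was not possible either. Without read counts, weak regions cannot be told from regions that were not called.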
